A study of Mus musculus with 2 samples.

Results

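The integrin genes described here are 10 genes of the integrin family, 5 for α subunits (Itga2, Itga3, Itga5, Itga6 and Itgav) and 5 for β subunits (Itgb1, Itgb4, Itgb5, Itgb6 and Itgb8), chosen by name from the 22380 protein-coding genes of the annotation. Their open chromatin was read from DNaseI-seq of NMuMG cells, a line of mouse mammary epithelium, in which DNaseI cuts accessible DNA and places rich in fragments are called as peaks. Both groups were cultured without serum and insulin for 6 h. One group was then given TGFβ1 at 5 ng/ml for 2 h and the other only the carrier solution (vehicle) for the same time. There was 1 deposited peak list per condition (17784 vehicle and 22600 TGFβ peaks after repeated rows were collapsed), so the spread between replicates is unknown, no test between the conditions was made, and all intervals below cover the counting of peaks only. Near the 10 genes, meaning the gene body and 50 kb on either side, lay 41 vehicle peaks and 58 TGFβ peaks. The cells are 1 established line, and promoter peaks were listed at 5 of 9 epithelial marker genes with vehicle (Cdh1, Krt8, Krt18, Krt19 and Grhl2) and at 4 with TGFβ, where Grhl2 had none, while Epcam, Cldn4 and Esrp1 were among those with none in either list. No promoter peak was listed at 5 immune or 4 endothelial markers, and 1 of 4 fibroblast markers (Col1a1) had one in both lists.

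Integrins are cell surface receptors made of an α and a β subunit that tie the extracellular matrix outside the cell to the actin or keratin cytoskeleton inside it. Each pairing sets which matrix protein is bound, such as collagen, laminin or fibronectin. In mammary epithelium they hold cells to the basement membrane. Some pairings with the αv subunit also release active TGFβ from its latent form, and TGFβ is a well known inducer of the passage of these cells from an epithelial to a mesenchymal shape.

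A peak is called shared where it overlaps a peak of the other list by at least 1 base, and vehicle-only or TGFβ-only where it does not. It is called a promoter peak where it lies within 1000 bp of an annotated transcript start and distal otherwise. In the sequences that follow, letters in capitals match 1 of 6 short strings on either strand: the AP-1 heptamer TGACTCA, the SMAD palindrome GTCTAGAC, the SMAD box CAGACA, the TEAD string GGAATG, the ETS string CGGAAGT and the RUNX string TGTGGTT. None of the 6 strings contains another. AP-1, SMAD, TEAD, ETS and RUNX are families of transcription factors that bind such sequences, and SMAD proteins carry the TGFβ signal into the nucleus. The 7 genes with a distal TGFβ-only peak are shown first, each by the 200 bp around the midpoint of its highest-scoring peak of that kind (assembly mm9, distance from the start of the longest coding transcript), since these are places where only the treated list held a peak.
Itga2, 1.69 kb upstream (chr13:115723836-115724035, + strand): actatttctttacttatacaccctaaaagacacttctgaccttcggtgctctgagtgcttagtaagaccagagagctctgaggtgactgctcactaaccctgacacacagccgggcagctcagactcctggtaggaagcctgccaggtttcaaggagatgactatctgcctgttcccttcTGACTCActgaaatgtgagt
Itga3, 49 kb upstream (chr11:94986952-94987151, + strand): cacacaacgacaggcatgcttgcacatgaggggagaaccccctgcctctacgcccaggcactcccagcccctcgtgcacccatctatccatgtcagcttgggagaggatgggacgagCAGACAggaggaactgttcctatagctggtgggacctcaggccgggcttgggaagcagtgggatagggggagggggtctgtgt
Itga6, 14.7 kb downstream (chr2:71639623-71639822, + strand): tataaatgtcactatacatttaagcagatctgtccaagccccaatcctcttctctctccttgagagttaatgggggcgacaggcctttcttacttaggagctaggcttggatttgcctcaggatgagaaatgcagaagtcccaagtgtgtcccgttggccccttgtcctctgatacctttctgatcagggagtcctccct
Itgav, 28.8 kb upstream (chr2:83535686-83535885, + strand): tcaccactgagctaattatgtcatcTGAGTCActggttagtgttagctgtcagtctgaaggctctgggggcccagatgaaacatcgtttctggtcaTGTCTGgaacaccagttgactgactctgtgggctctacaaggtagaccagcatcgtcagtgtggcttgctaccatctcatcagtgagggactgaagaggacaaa
Itgb4, 19.6 kb upstream (chr11:115819354-115819553, + strand): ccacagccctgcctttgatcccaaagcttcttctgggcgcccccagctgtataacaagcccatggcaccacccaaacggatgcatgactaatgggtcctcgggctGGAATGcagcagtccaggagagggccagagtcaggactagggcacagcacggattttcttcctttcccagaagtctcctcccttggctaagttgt
Itgb1, 18.7 kb upstream (chr8:131190762-131190961, + strand): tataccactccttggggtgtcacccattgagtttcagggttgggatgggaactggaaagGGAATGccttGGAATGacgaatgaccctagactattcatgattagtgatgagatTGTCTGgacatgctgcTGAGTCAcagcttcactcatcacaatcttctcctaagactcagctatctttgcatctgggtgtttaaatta
Itgb6, 25.2 kb upstream (chr2:60585796-60585995, + strand): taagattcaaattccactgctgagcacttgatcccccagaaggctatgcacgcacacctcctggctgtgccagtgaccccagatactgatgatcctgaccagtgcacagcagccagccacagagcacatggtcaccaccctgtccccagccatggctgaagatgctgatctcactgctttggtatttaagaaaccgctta

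Match letters differed from gene to gene in these windows. The Itga2 window held an AP-1 heptamer alone, the Itgav window an AP-1 heptamer and a SMAD box, and the Itgb1 window an AP-1 heptamer, a SMAD box and 2 TEAD strings. The Itga3 window held a SMAD box and the Itgb4 window a TEAD string. The Itga6 and Itgb6 windows held none of the 6 strings. No window overlapped an annotated exon.

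More peaks were listed with TGFβ than with vehicle at 8 of the 10 genes, and fewer at Itgb5 and Itgb8. Over all protein-coding genes the share with more TGFβ peaks was 33.6%, and it was 43.5% of the 17299 genes with any peak in the window. The windows of all genes held 18.7 TGFβ peaks per Mb, against 33.1 over the integrin genes. The 8 genes include Itga5, where the additional peak came from 1 vehicle peak that was listed as 2 pieces with TGFβ. The sizes depended on the length of the lists: with the TGFβ list shortened by score to the length of the vehicle list, 44 TGFβ peaks still stood against 41 vehicle peaks, but 5 genes had more TGFβ peaks. With gene bodies alone, or only peaks at or above their own list's median score, 4 genes had more. With 100 kb flanks, or peaks given to the nearest coding start or gene body, 7 had more. The share of all genes was not computed in these settings. The TGFβ library had fewer mapped reads than the vehicle library by the study's own listing, and the part of depth in the counts was not tested. Whether fewer cells with an open site or a less open site in each cell lies behind a missing peak cannot be told apart in bulk DNA, and a site below the authors' threshold is not listed at all.

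**Figure D1:**
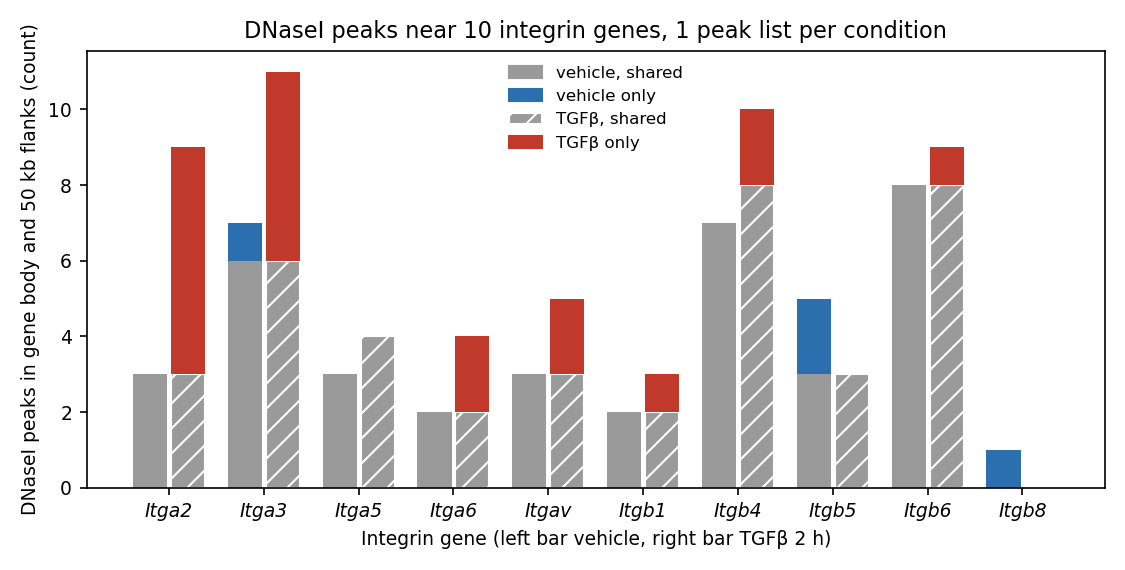
Number of DNaseI peaks (vertical axis) in the body and 50 kb flanks of each integrin gene, vehicle on the left and TGFβ 2 h on the right of each pair, split into shared peaks and peaks of 1 list only. Itga2 went from 3 to 9 peaks, Itga3 from 7 to 11, and Itgb5 and Itgb8 had fewer peaks with TGFβ.

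Of the 58 TGFβ peaks, 19 were TGFβ-only, or 32.8% (95% Wilson interval 22.1 to 45.6), against 33.7% of the whole TGFβ list. Distal peaks held 18 of the 19, which was 47.4% of 38 distal peaks (32.5 to 62.7), against 55.3% of all distal TGFβ peaks. Both shares near the integrin genes were thus close to the share in the list as a whole, and the whole-list values lay inside both intervals. With the TGFβ list shortened by score to the length of the vehicle list, 9 of 44 peaks were TGFβ-only (20.5%, 11.2 to 34.5), against 22.8% of the shortened list. Of distal peaks 8 of 27 were then TGFβ-only (29.6%, 15.9 to 48.5), against 44.3%. At least 1 TGFβ-only peak was listed at 7 of 10 genes, against 40.5% of protein-coding genes, whose windows held fewer peaks per length: 18.7 TGFβ peaks per Mb of window over all genes and 33.1 over the integrin genes. Itga2 alone gave 6 of the 19, and without it, a setting added after seeing the data, 13 of 49 peaks (26.5%) were TGFβ-only.

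Of the 41 vehicle peaks 4 were vehicle-only, or 9.76% (3.86 to 22.5), against 17.6% of the whole vehicle list, which lay inside the interval. The count ran from 2 with gene bodies alone to 11 with a reciprocal overlap of 50%. It was 7 with the TGFβ list shortened to the length of the vehicle list. The 4 peaks lay at 3 genes (Itga3, Itgb5 and Itgb8), and 25.9% of all protein-coding genes had such a peak in the window. A single one of 20 promoter peaks was vehicle-only, that of Itgb8, beside 7.29% of all vehicle promoter peaks.

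**Figure D2:**
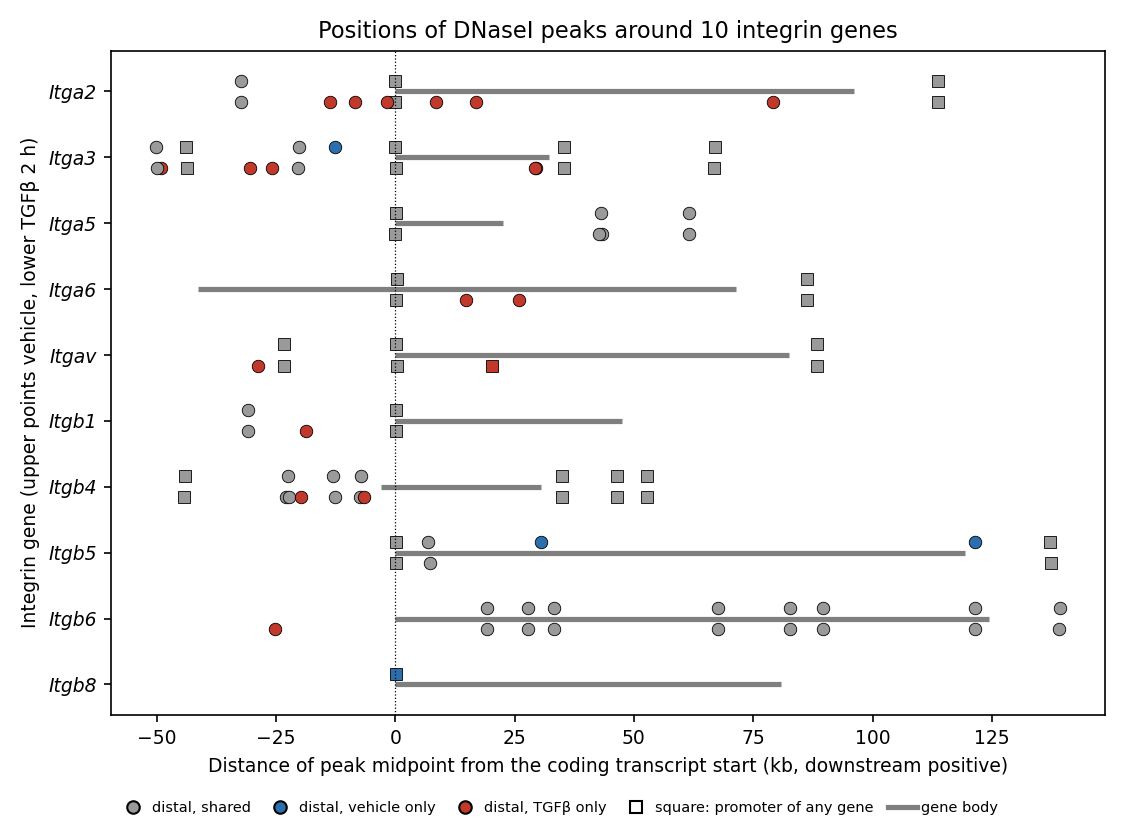
Midpoints of the peaks around each integrin gene as distance in kb from the start of the longest coding transcript (horizontal axis, downstream positive), with vehicle above and TGFβ 2 h below each gene line. Squares are promoter peaks of any gene, circles distal peaks, and colours mark shared, vehicle-only and TGFβ-only peaks. The 6 TGFβ-only peaks of Itga2 lie on both sides of its start, 1 of them 79.2 kb downstream. Itgb6 carries 8 shared distal peaks.

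Itga2 encodes the α2 subunit, which pairs with β1 as a collagen receptor. The gene lies on the minus strand of chromosome 13 (chr13:115626124-115722249), and 3 vehicle peaks and 9 TGFβ peaks were listed near it. The 3 vehicle peaks all had a TGFβ partner. Its own promoter had a score of 963 with vehicle and 988 with TGFβ, on the authors' scale that runs from 540 to a ceiling of 1000 and was set for each list separately. A distal peak 32.3 kb upstream, inside the neighbouring gene Itga1, had scores of 682 and 775, and the promoter of Mocs2 beyond the 3′ end was at the ceiling in both lists. The 6 TGFβ-only peaks lay on both sides of the start.

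Upstream of Itga2, the TGFβ-only peak at chr13:115723581-115724289 was 709 bp wide, at the score ceiling and 1.69 kb from the start. It lay 899 bp from the nearest vehicle peak, the Itga2 promoter itself, and would count as shared if peaks up to 1000 bp apart were joined. Farther upstream were chr13:115730625-115730906 (score 615) and chr13:115735769-115736086 (score 883). The other TGFβ-only peaks were in introns of Itga2: in intron 1 of 29 at chr13:115713570-115713952 (score 592) and chr13:115705260-115705535 (score 575), and in intron 23 at chr13:115642553-115643513 (score 766). The peak in intron 23 lay 79.2 kb from the Itga2 start and nearer to that of Mocs2, 34.5 kb away. The median score of the TGFβ list was 927, so only the peak next to the start lay above it, and a score of 592 exceeded 10.3% of the list. All 3 upstream peaks carried an AP-1 heptamer within the central 200 bp, while none of the 3 intronic ones did. Over its whole length the peak in intron 23 held 1 as well. The heptamers of the 2 farther upstream peaks are shown with 20 bp on either side, a choice made after their matches were seen.
Itga2, 8.52 kb upstream (chr13:115730667-115730713, + strand): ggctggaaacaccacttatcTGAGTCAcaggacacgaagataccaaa
Itga2, 13.7 kb upstream (chr13:115735971-115736017, + strand): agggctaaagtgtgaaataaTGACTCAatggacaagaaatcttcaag

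Itga3 and Itga6 encode α subunits of laminin receptors, and Itgb4 the β subunit that joins α6 in hemidesmosomes, the junctions that fix epithelial cells to the basement membrane. Near Itga3 (chr11:94905788-94938115, minus strand) there were 7 vehicle and 11 TGFβ peaks. Its 5 TGFβ-only peaks had low scores for the list, from 547 to 604. Those at chr11:94908336-94908563 and chr11:94908653-94908965 were neighbours in intron 23 of 24, near the 3′ end. Both were nearer to the start of the neighbouring gene Pdk2 than to that of Itga3. The others lay upstream at chr11:94963732-94964122, chr11:94968283-94968445 and chr11:94986863-94987239, and all 3 were nearer to the start of Dlx3, a homeobox gene, than to that of Itga3. The last of them, whose sequence is printed above, lay 457 bp from a vehicle peak and would count as shared if peaks up to 1000 bp apart were joined. A vehicle-only peak at chr11:94950234-94951034, 12.6 kb upstream, had a score of 544, close to the lowest value listed. The unshared peaks near Itga3 thus had scores at the low end of both lists. All 6 one-to-one pairs near Itga3 were narrower with TGFβ. The 2 distal pairs scored 810 with vehicle and 820 with TGFβ at 20.3 kb upstream, and 910 and 659 at 49.9 kb. The promoters of Samd14 and Dlx3 in this window scored 768 and 552, and 928 and 635, while those of Itga3 and Pdk2 were at the ceiling in both lists.

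Near Itga6 (chr2:71583673-71696473, plus strand) 2 vehicle peaks and 4 TGFβ peaks were listed. Both vehicle peaks were promoters and both were shared, that of Itga6 with scores of 1000 and 960 and that of the neighbouring kinase gene Pdk1 at the ceiling in both lists. The 2 TGFβ-only peaks lay in intron 2 of 25, at chr2:71639349-71640095 (score 793) and chr2:71650858-71651046 (score 698). No distal vehicle peak was listed in this window, so both distal peaks of Itga6 were TGFβ-only.

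Itgb4 (chr11:115836023-115869726, plus strand) had 7 vehicle and 10 TGFβ peaks, yet no peak in its body and none at its own promoter in either list. Its distal peaks lay upstream, most of them inside the neighbouring gene Sap30bp. One of the 2 TGFβ-only peaks, at chr11:115819250-115819656, had a score of 853. The other, at chr11:115832360-115832642, had a score of 661 and lay 285 bp from the nearest vehicle peak. That vehicle peak belonged to a shared pair, 7.31 kb from the coding start with TGFβ, that was 319 bp wide with a score of 676 with vehicle and 645 bp wide with a score of 1000 with TGFβ. A further shared site, 12.7 kb from the coding start with TGFβ, was at the ceiling in both lists and narrowed from 1744 to 800 bp. A vehicle peak of 1395 bp at the ceiling stood against 2 TGFβ peaks of 353 and 569 bp, with scores of 581 and 793. Among the distal sites upstream of Itgb4, the TGFβ peak was thus wider at 1 and narrower at another. The promoter of Galk1, a sugar kinase gene downstream of Itgb4, scored 598 with vehicle and 1000 with TGFβ.

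Itga5 encodes the α subunit of the main fibronectin receptor. Near it (chr15:103174720-103197194, minus strand) 3 vehicle and 4 TGFβ peaks were listed, and every one was shared. The Itga5 promoter peak was at the ceiling in both lists and went from 1338 to 776 bp in width. The additional TGFβ peak arose where a vehicle peak of 1209 bp at the ceiling, inside Zfp385a, was listed with TGFβ as pieces of 549 bp (score 1000) and 497 bp (score 878). Itga5 was thus the only one of the 10 genes with neither a vehicle-only nor a TGFβ-only peak.

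Itgb1 encodes the β subunit shared by the α2, α3 and α5 receptors and by many others. Near it (chr8:131209554-131257100, plus strand) 2 vehicle and 3 TGFβ peaks were listed. Its promoter peak and a distal peak 30.8 kb upstream were at the ceiling in both lists. Between them, at chr8:131190438-131191285, 18.7 kb upstream, lay a TGFβ-only peak of 848 bp that was also at the ceiling. The nearest vehicle peak lay 11.5 kb away. This peak and the one next to the Itga2 start were the 2 TGFβ-only peaks of the 19 at the ceiling, while 15 of the 19 scored below 800. Over its whole length the Itgb1 peak held 2 AP-1 heptamers, 2 SMAD boxes, 2 TEAD strings and 1 RUNX string.

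Itgav encodes the αv subunit, which pairs with several β subunits, among them those of Itgb1, Itgb5, Itgb6 and Itgb8, in receptors for fibronectin and vitronectin. Near it (chr2:83564554-83647073, plus strand) 3 vehicle and 5 TGFβ peaks were listed. Its promoter peak was at the ceiling in both lists and 1287 bp wide with vehicle and 980 bp with TGFβ. One TGFβ-only peak, at chr2:83535624-83535946, lay 28.8 kb upstream and had a score of 632. The other, at chr2:83584572-83585259 in intron 2 of 29 (score 766), met the start of the pseudogene Dnmt3l-ps1 and was for that reason classed as a promoter peak. It is the 1 TGFβ-only peak of the 19 that was not distal.

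Itgb5 encodes the β subunit of a vitronectin receptor with αv, and it had fewer peaks with TGFβ than with vehicle, 3 against 5. The gene lies at chr16:33829751-33949239 on the plus strand. Its promoter peak scored 1000 with vehicle and 801 with TGFβ. Vehicle-only peaks were listed at chr16:33860082-33860481 in intron 2 of 14 (score 631) and at chr16:33951061-33951421 just beyond the gene (score 684). Against these, the shared site in intron 1 was far wider with TGFβ. It spanned 73 bp with a score of 602 with vehicle and 1119 bp with a score of 1000 with TGFβ (chr16:33836584-33837702), the widest change in the 35 one-to-one pairs. A peak of 73 bp is the shortest width in either list, and with peaks under 150 bp dropped the TGFβ peak at this site had no partner. The TGFβ peak held 3 AP-1 heptamers, none of them in its central 200 bp. Of these, 2 are shown with 20 bp on either side, chosen after the values were seen.
Itgb5 intron, match 1 (chr16:33836680-33836726, + strand): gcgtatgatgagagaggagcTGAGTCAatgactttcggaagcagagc
Itgb5 intron, match 2 (chr16:33836942-33836988, + strand): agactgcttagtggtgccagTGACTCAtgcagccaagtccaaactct

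Itgb6 encodes the β subunit of the epithelial receptor αvβ6, which binds and activates latent TGFβ. Near it (chr2:60436349-60560700, minus strand) 8 vehicle and 9 TGFβ peaks were listed, all of them distal, and no promoter peak was listed. All 8 vehicle peaks were shared, 7 in introns and 1 downstream of the gene, so that Itgb6 had the most shared distal sites of the 10 genes. In order from the start of the gene, vehicle and TGFβ scores were 792 and 1000 at 19.2 kb, 850 and 1000 at 27.8 kb, and 1000 and 1000 at 33.3 kb. They were 669 and 896 at 67.6 kb, 945 and 825 at 82.6 kb, and 662 and 706 at 89.6 kb. At 121 kb they were 570 and 827, and at 139 kb, downstream of the gene, 1000 and 934. As each list was scored separately, these values place a peak within its own list and their order across lists was not tested. The peak was wider with TGFβ in 5 of 8 pairs and narrower in 3. The ratio of TGFβ to vehicle width ran from 0.34 at 89.6 kb (621 to 211 bp) to 1.45 at 139 kb (869 to 1260 bp). The TGFβ-only peak at chr2:60585594-60586196, 25.2 kb upstream, had a score of 540, the lowest in the list.

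Itgb8 encodes the β subunit of αvβ8, another receptor that activates latent TGFβ. Its window (chr12:120396495-120477275 with flanks, minus strand) held 1 vehicle peak and no TGFβ peak. The vehicle peak covered the Itgb8 promoter (chr12:120476715-120477718), was 1004 bp wide and had a score of 685, which exceeded 20.1% of the vehicle list. The nearest TGFβ peak was 187 kb away. Itgb8 was thus the only one of the 10 genes whose own promoter had a peak in 1 list alone. The 200 bp just upstream of its start, inside the vehicle-only peak and on the strand of the gene, are printed below as the site of that difference, again chosen after the values were seen. They held a TEAD string and none of the other 5.
Itgb8 promoter (chr12:120477276-120477475, - strand): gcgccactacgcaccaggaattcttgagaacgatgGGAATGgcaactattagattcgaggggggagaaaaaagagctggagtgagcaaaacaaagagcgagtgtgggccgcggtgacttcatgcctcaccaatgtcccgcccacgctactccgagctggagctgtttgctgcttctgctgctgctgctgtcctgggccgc

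Own promoter peaks were listed at 8 of 10 integrin genes with vehicle (45.6% of protein-coding genes) and at 7 with TGFβ (46.2%). Itgb4 and Itgb6 had none in either list. At the 7 genes with both, the TGFβ peak was the narrower in 7 of 7. At 4 of them both scores were at the ceiling, where no order can be read, and the scores of Itga2, Itga6 and Itgb5 are those given above. Over all 9031 one-to-one promoter pairs 75.8% were narrower with TGFβ, so that narrower promoter peaks were common to the whole list. Distal pairs near the integrin genes were divided: 7 of 16 were narrower with TGFβ (62.1% of all distal pairs), and 9 were wider, 5 of them near Itgb6.

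**Figure D3:**
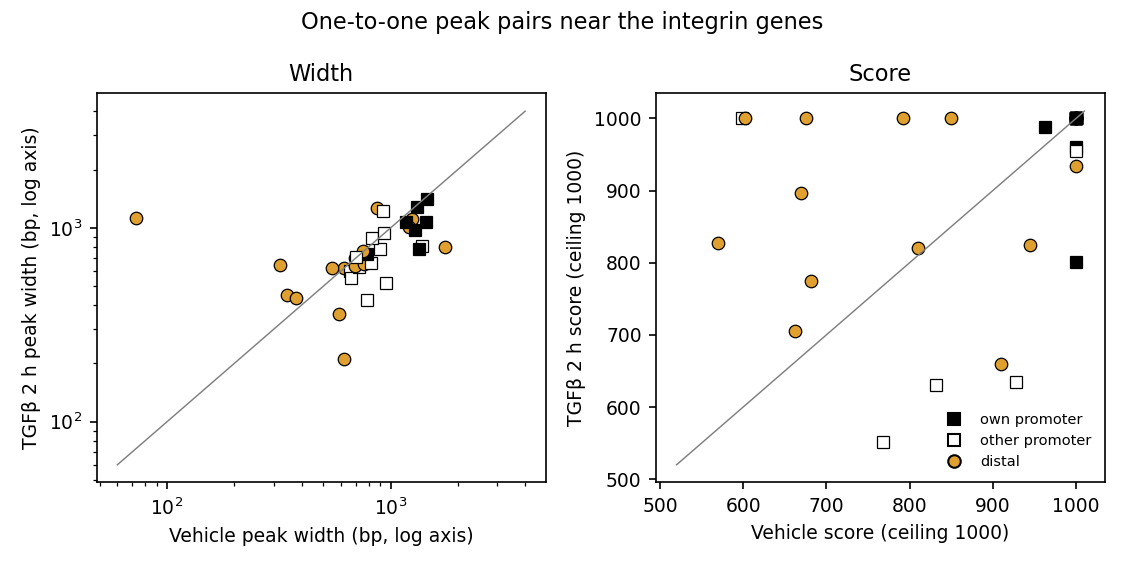
Width in bp (left, logarithmic axes) and score (right) of the 35 one-to-one peak pairs near the integrin genes, vehicle on the horizontal and TGFβ 2 h on the vertical axis, with a line of equality and 1 point per pair. All 7 own promoters lie below the width line, and the Itgb5 intron stands apart at 73 bp against 1119 bp; points at the ceiling of 1000 overlap, and as scores were set separately in each list the score line marks equal numbers only.

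The distal TGFβ-only peaks of the integrin genes had a median width of 350 bp, against 436 bp over all distal TGFβ-only peaks, and a median score of 623.5 against 671. Their position was upstream in 11 of 18 and intronic in 7, and none lay downstream. The nearest protein-coding start was that of the integrin gene for 13 of all 19 TGFβ-only peaks. An AP-1 heptamer was found in the central 200 bp of 5 of the 18 (27.8%, interval 12.5 to 50.9), against 27.2% of all 6519 distal TGFβ-only peaks. Of these 5, Itga2 held 3, and Itgav and Itgb1 held 1 each. In whole peaks the heptamer was found in 9 of 18, against 45.2% of the list. Among shared distal TGFβ peaks 3 of 20 held it centrally, against 23.5% of the list. Among shared promoter peaks near the integrin genes it was central in 5 of 19 with vehicle (26.3%, 11.8 to 48.8), against 2.61% of the list, and in 4 of 19 with TGFβ (21.1%, 8.51 to 43.3), against 2.68%. In both lists 4 of these lay at promoters of neighbouring genes, 1 at Mocs2 near Itga2 and 3 near Itgb4 (Sap30bp with Recql5, H3f3b and Unk). The remaining vehicle peak was that at the Itga5 promoter, where the TGFβ peak also held 1 heptamer, outside its central 200 bp. In whole shared promoter peaks the heptamer was found in 6 of 19 with vehicle (11% of the list). With TGFβ it was also in 6 of 19 (10.4%).

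In the same central 200 bp the SMAD box was found in 6 of the 18 (29.8% of the list), the TEAD string in 4 (14.9%) and the ETS string in 1, upstream of Itga3 (0.936%). The SMAD palindrome and the RUNX string were in none of these 18 central windows, beside 0.675% and 8.07% of the list. The list share lay inside the counting interval of the 18 peaks for 5 strings and just below it for ETS (0.988 to 25.8), which rested on 1 peak. The 300 bp promoters of RefSeq (assembly GRCm38.p6) held 10 promoters of 8 of the genes but none of Itga6 or Itgb4. The AP-1 heptamer was found in 0 of 10 promoters (5.2% of all 32851 promoters) and the SMAD box in 4 of 10 (21%). The TEAD, ETS and RUNX strings were in 1 of 10 each (14.7%, 6.42% and 5.27%), and the SMAD palindrome was in 0 (0.213%). No interval was computed for these 10 promoters.

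Other genes of the pathway were counted in the same way, and as for the integrin genes only counts are given. Near 17 other integrin genes, 55 vehicle and 68 TGFβ peaks were listed, with 11 vehicle-only and 23 TGFβ-only. More TGFβ peaks were listed at 9 of 17 genes, against 33.6% of protein-coding genes and 43.5% of those with any peak. Among these TGFβ-only peaks 5 were the peaks of Itga2 again, which fall in the window of the neighbouring Itga1. At least 1 TGFβ-only peak was listed at 10 of the 17, against 40.5% of protein-coding genes. The windows of the 17 held 23.1 TGFβ peaks per Mb, against 18.7 over all genes. After Itga1 the most were near Itga7, for a laminin receptor subunit, and Itgb3, whose product pairs with αv, with 4 each. The 16 genes for adaptors and activators that link integrins to actin had 63 vehicle and 89 TGFβ peaks, 35 of them TGFβ-only. At least 1 was listed at 15 of the 16, against 40.5% of protein-coding genes. The windows of the 16 held 27.8 TGFβ peaks per Mb, against 18.7 over all genes. The most TGFβ-only peaks, 4 each, lay near Tln2, Parva, Ptk2, Pxn and Actn1, for a talin, α-parvin, focal adhesion kinase, paxillin and an α-actinin. Vcl, for vinculin, had none.

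Near 12 genes for integrin ligands 59 distinct TGFβ peaks were listed, of which 23 were TGFβ-only, against 40 distinct vehicle peaks of which 4 were vehicle-only. Genes for laminin chains were among those with the most. Lama3 had no vehicle peak and 5 TGFβ-only peaks, Lamb3 and Lamc1 had 5 TGFβ-only peaks each, and Lama5 had 4, whereas Lamb1 had none. Fn1 (fibronectin), Thbs1 and Vtn had no TGFβ-only peak, and Tnc had no peak in either list. The windows differed in length, from 103.2 kb at Vtn to 349 kb at Lama3. The TGFβ-only share was 33.8% for the other integrins, 39.3% for the adaptors and 39% for the ligands, and the interval of each held the 33.7% of the whole list.

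**Figure D4:**
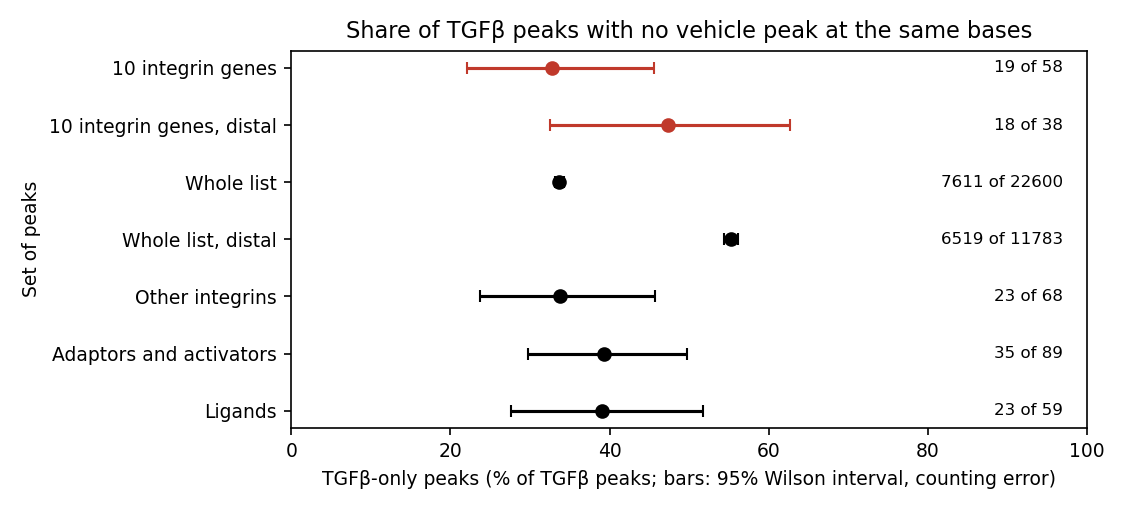
Share of TGFβ peaks that were TGFβ-only (horizontal axis, percent) for the 10 integrin genes, all and distal peaks, for the whole TGFβ list and for 3 further gene lists, with 95% Wilson intervals that cover counting error only. The integrin genes stand at 32.8% and 47.4%, beside 33.7% and 55.3% in the whole list, and all intervals overlap the matching whole-list value.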

How the data were processed

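DNaseI-seq of vehicle and TGFβ samples was analysed from 1 peak list each, grouped by the sample titles. The series text speaks of duplicates, but separate replicate lists were not analysed here, and read depth is not in the lists. According to the submitters' processing notes and the methods, reads were aligned to mm9 and peaks called with MACS2 2.1.2. The notes also name deepTools. The methods state that DNaseI-seq followed the pipeline of the study's ATAC-seq, another assay of accessible DNA, with options of its own. For ATAC-seq, peaks were kept as reproducible between replicates at an irreproducible discovery rate of 0.05. The options for DNaseI-seq are not given in the sources used here. The value deposited with every peak is a score that the authors gave as a whole number, set separately in each list. What this score measures is not stated in the sources used here. It was used only to describe and rank peaks. Rows with identical coordinates (70449 vehicle and 68542 TGFβ rows) were collapsed. GENCODE M1 gene models and the NCBIM37 sequence, the same assembly as mm9, gave genes, exons and motifs. In each list 1 peak ran past a chromosome end and was kept. Intervals are 95% Wilson intervals (scipy 1.17.1, Python 3.11.15), and figures used matplotlib 3.10.9. Overlap and promoter calls were tested on simulated lists. All 10 genes are named, with every unshared peak. A few items of the gene lists and sequences are not reported here. The members, gene lists and strings were chosen with earlier results of these data known.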

Additional observations from a re-analysis of the deposited data

How the results depend on the processing

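Of 69 recomputed values for 8 results, 40 stayed within 1.5 times the count or inside the interval of the share, and 29 did not. With every deposited row counted, vehicle peaks were 177, TGFβ peaks 190, vehicle-only 9, TGFβ-only 41 (21.6% of TGFβ rows), and 5 genes had more TGFβ rows. Gene bodies alone held 17 vehicle, 23 TGFβ, 2 vehicle-only and 8 TGFβ-only peaks, and 4 genes had more TGFβ peaks. With 100 kb flanks vehicle-only peaks were 8. With peaks given to the nearest coding start or the gene body, 24 vehicle and 37 TGFβ peaks remained. Keeping only peaks that reached their own list's median score left 21 vehicle, 27 TGFβ, 2 vehicle-only and 8 TGFβ-only peaks, and 4 genes with more TGFβ peaks. With the TGFβ list shortened to the vehicle list's length, vehicle-only peaks were 7, TGFβ-only peaks 9 (20.5% of all and 29.6% of distal TGFβ peaks), and 5 genes had more TGFβ peaks. With a reciprocal overlap of 50%, vehicle-only peaks were 11 and the TGFβ-only share was 48.3% of all and 68.4% of distal peaks. The AP-1 heptamer was in 9 of 18 distal TGFβ-only peaks with whole peaks searched, and in 2 without Itga2, a choice made after seeing the data. More TGFβ than vehicle peaks were counted in each of these settings that gave both numbers. No paired analysis was possible because a single list per condition leaves nothing to pair. The lists hold no read depth. A missing peak may lie just under the authors' threshold.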
